A study of Mus musculus with 28 samples.

Results

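Mif, Il33, Cxcl16, Cxcl12, Ccl2, Cxcl10, Xcr1, Ackr4, Ik and Tnfaip1 are genes of chemokines, cytokines and a scavenger receptor, of chemokine receptors, and of proteins with names that come from cytokine biology. They were taken as a list of 10 names from 18194 genes that the array measured with a probe set of 1 gene symbol. The list was drawn up with earlier results of these data known. The study itself had named Mif, Cxcl16, Xcr1, Ackr4 (as Ccrl1), Ik and Tnfaip1 as detected or upregulated in its cells. Each array held the amplified cDNA of 1 Müller glial cell (MGC), the radial glia of the retina, picked by shape from dissociated mouse retina. The cells came from 6 conditions. Adult wild type (WT) C57/BL6 retinas, older than 25 weeks according to the labels, gave 5 cells, and the study took their profiles over from earlier work. The study's methods give a younger lower bound for their age than the labels do, so how far their age matches the mutants is not settled. Rhodopsin knockout (Rhod-ko) retinas, also C57/BL6, were sampled at 8 and at 25 weeks, with 5 cells each. They lack the visual pigment gene of rods, and their rods die slowly. The FVB strain with the rd1 mutation, which hits the β subunit of the cGMP phosphodiesterase of rods, gave 5 cells at postnatal day 13 (P13) and 5 arrays at 5 weeks. A congenic FVB line without that mutation gave 3 cells at P13. At P13 rd1 and congenic cells share age and FVB background, and adult WT and Rhod-ko share the C57/BL6 strain. Between adult WT and rd1 at 5 weeks strain, age and genotype all differ and cannot be told apart. Between the Rhod-ko cells of 8 weeks and adult WT age and genotype differ by the labels. In every comparison with adult WT the source of the profiles differs as well, since the WT profiles came from earlier work. That difference cannot be told apart from genotype.

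Chemokines are small secreted proteins that draw leukocytes along a gradient through G protein-coupled receptors, and atypical receptors bind the same ligands and clear them without that signal. Cytokines such as MIF and IL-33 act on immune cells and glia through receptors of other families. MGCs span the whole retina, contact neurons and vessels, and become reactive when photoreceptors die, and reactive glia are known to release chemokines and cytokines.

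The values are linear MAS5 signals, brought by the authors to 1 common trimmed mean over all arrays. The highest of a gene's probe sets in a cell stood for the gene, which was counted as on at a signal of at least 2,000, the main threshold of the study's methods. In rd1 at 5 weeks, arrays A5 and A6 gave nearly equal values (Pearson r of 0.989 over log2 signals, while the other 377 pairs of arrays had 0.764 or less) and were averaged, which leaves 4 cells there and 27 in all. Since no source says which animal a cell came from, a condition counts as 1 sample and conditions were not tested against each other. A difference of 2-fold between group medians, after a floor of 1,000, is used below as a rule of size. Intervals of shares are exact 95% binomial (Clopper-Pearson) and cover counting error only.

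Some cells went against their label. Of 19 MGC markers, 12 to 18 were on in each adult WT cell, each mutant cell of 5, 8 or 25 weeks, and rd1 P13 cells B4, A4 and B3. Fewer were on in the congenic cells (8 in A3, 7 in A4, 4 in A5) and in rd1 P13 cells A1 (9) and B1 (6). Those 5 cells had 8 or 9 of 10 measured vascular markers on, against 0 to 3 in every other cell. Rlbp1, which encodes the retinaldehyde-binding protein of MGCs, was at 22.2, 24.5 and 147 in adult WT cells MG1, MG16 and MG22 and at 109338 and 149346 in MG15 and MG3. It was also off in congenic A5 (47.5) and rd1 P13 B1 (1355). MG1, MG16 and MG22 had 12, 14 and 15 of the 19 MGC markers on, Glul and Vim among them, and had Car14, Crym and Mfge8 off besides Rlbp1. Rhod-ko 8 weeks cell 7 had 6 of 16 microglia and macrophage markers on, while the other cells had 0 or 1. Of 13 rod markers, 8 and 7 were on in Rhod-ko 8 weeks cells 7 and 8 and 5 to 10 in each P13 cell, against 0 to 3 in the others, and their part in the results was not tested. The median signal over all probe sets was 42.6 to 177 for adult WT arrays, 102 to 199 for Rhod-ko arrays of 8 weeks and 26.8 to 59.8 in the other 4 groups. Cells of each condition are given below in a fixed order: MG1, MG16, MG22, MG15 and MG3 of adult WT; 2, 1, 3, 7 and 8 of Rhod-ko at 8 weeks; A1 to A5 of Rhod-ko at 25 weeks; A3, A4 and A5 of congenic FVB; B4, A4, A1, B3 and B1 of rd1 at P13; and A1, B1, A8 and the averaged pair A5/A6 of rd1 at 5 weeks.

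Most of the 10 genes were on in WT and in mutant cells alike. Mif, Il33, Cxcl16, Cxcl12, Ackr4, Ik and Tnfaip1, 7 of 10, were on in at least 1 of 8 WT cells and 1 of 19 mutant cells, and 36.8% of all genes were. Xcr1 alone was on in WT cells only, a class that held 6.04% of all genes. No member was on in mutant cells only, against 15.0% of all genes. Ccl2 and Cxcl10 were on in no cell, as were 42.2% of all genes. No member was on in all 27 cells, as 0.363% of all genes were. The members were chosen with earlier results of these data known, so setting their shares beside all genes is no test of the list. By the number of cells on, the order was Ik (24 of 27), Mif (22), Ackr4 (18), Il33 (17), Tnfaip1 (16), Cxcl16 (15), Cxcl12 (5) and Xcr1 (3). Neighbours in that order overlap in their intervals, for example Ik at 88.9% (70.8% to 97.6%) and Mif at 81.5% (61.9% to 93.7%). The shares come from the same 27 cells of 6 conditions, so such overlap does not compare 2 genes. Ik and Mif were both on in 19 cells, Ik without Mif in 5 and Mif without Ik in 3. Without MG1, MG16 and MG22 Xcr1 was on in no cell, and the class of WT only was then empty.

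**Figure D1:**
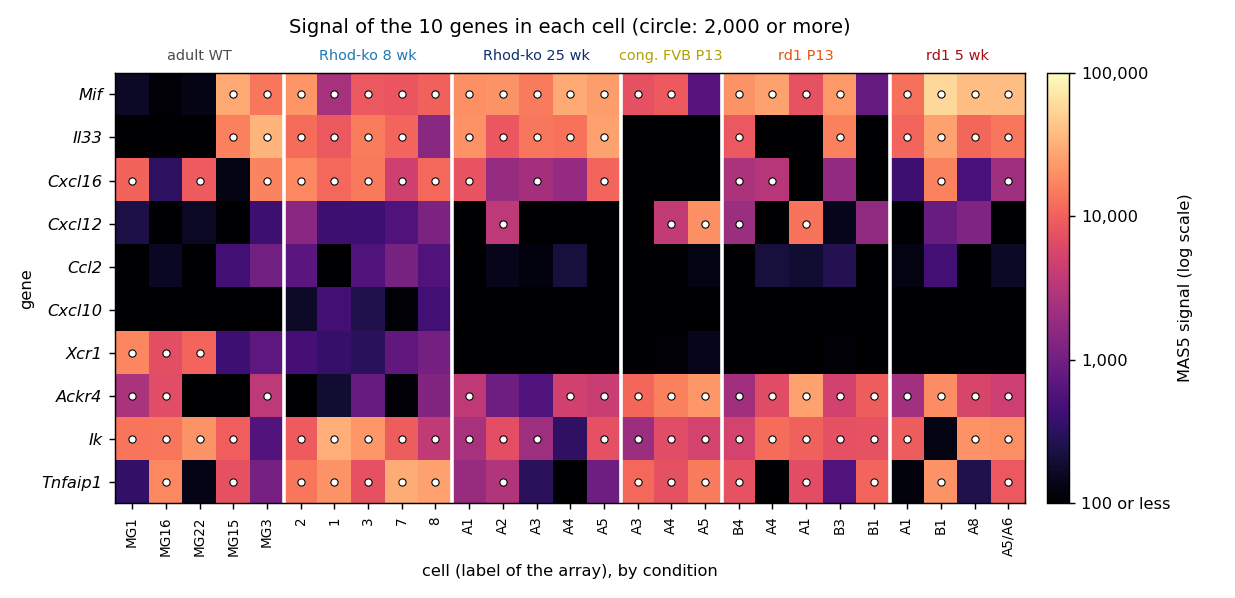
MAS5 signal (log colour scale, 100 or less in black) of the 10 genes (rows) in the 27 cells (columns), grouped by condition, with a circle where the signal was 2,000 or more. Xcr1 has circles in 3 adult WT cells alone, Ackr4 has circles in all 12 FVB cells and in no Rhod-ko cell at 8 weeks, and Ccl2 and Cxcl10 have none.

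Mif was on in every cell of the mutants at 5, 8 and 25 weeks and off in 3 of 5 adult WT cells. Mif encodes macrophage migration inhibitory factor, a cytokine with a tautomerase fold that many cell types keep ready in the cytosol. The gene lies at chr10:75859353-75860277 (GRCm38.p6). Its signals were 164, 106, 133, 28397 and 14282 in the adult WT cells, so the group split into 3 cells with the gene off and 2 cells in which it lay above 97% of the genes of the array. Rhod-ko cells had 22003, 2459, 8651, 8306 and 10241 at 8 weeks and 20184, 21458, 14821, 29641 and 24245 at 25 weeks. Rhod-ko cell 1 was the lowest of the first set, and all 5 cells of the second set lay above 14,000. Signals in rd1 at 5 weeks were 12797, 57984, 39363 and 39511, with cell A1 below the other 3. At P13 they were 7455, 8966 and 628 in congenic FVB and 21270.0, 25348, 7724, 23243 and 819.8 in rd1, where the low cells, congenic A5 and rd1 B1, both belong to those with vascular markers. Mif was thus on in 2 of 5 adult WT cells (5.27% to 85.3%), 2 of 3 congenic cells and 18 of 19 mutant cells (94.7%, 74.0% to 99.9%). Being on in all 5 cells was seen for 2.85% of genes in Rhod-ko at 8 weeks and for 3.7% at 25 weeks, and being on in all 4 rd1 cells at 5 weeks for 2.76%.

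Relative to adult WT the median of Mif was at least 8.65-fold higher in Rhod-ko at 8 weeks, at least 21.5-fold at 25 weeks and at least 39.4-fold in rd1 at 5 weeks (log2 differences of at least 3.11, 4.42 and 5.30), since the adult WT median of 164 lay under the floor. These 3 comparisons share the 5 adult WT cells, and the cells of the groups overlapped in each, because MG15 and MG3 reached 28397 and 14282. The size rests on the 3 cells with Rlbp1 off. Without any 1 of them the differences were 1.19, 2.51 and 3.38 (log2). Without MG1, MG16 and MG22 the differences were -1.22, 0.09 and 0.97 (log2), so that the first was at least 2-fold lower and the others were within 2-fold. With congenic FVB, the younger WT cells of that strain, as the control of rd1 at 5 weeks, the difference was 2.40. At P13 the rd1 median was 2.85-fold above the congenic median (1.51, log2), with overlap, and was within 2-fold without any 1 of rd1 cells B4, A4 or B3 (0.85, 0.78 and 0.78). Without congenic A3 or A4 it was 2.83 and 2.96. Mif has 7 pseudogenes on 7 chromosomes in the RefSeq table, and whether cDNA of such copies reaches its probe sets was not tested. The signal came from 1 of its 3 probe sets wherever the gene was on, as the others stayed at or below 729.

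Of the partners of MIF, the relative Ddt and the co-receptor gene Cd44 were often on and the others never. Ddt, which encodes D-dopachrome tautomerase, was on in 15 of 27 cells, at 20.4, 80.7, 13.9, 1383 and 2536 in adult WT, 12165, 2856, 5713, 5603 and 11212 in Rhod-ko at 25 weeks and 6209, 7669, 2937 and 23165 in rd1 at 5 weeks. It was low in MG1, MG16 and MG22, as Mif was, and in all congenic cells. The receptor gene Cd74 was on in no cell, with a highest signal of 1744. Its signalling partner Cd44 was on in 15 cells, among them all 5 Rhod-ko cells at 25 weeks and all 4 rd1 cells at 5 weeks. The others were 3 adult WT cells, 2 rd1 cells at P13 and 1 Rhod-ko cell at 8 weeks. Adult WT cells had 80.1, 8420, 10549, 789 and 2071, so Cd44 was high in MG16 and MG22, where Mif and Ddt were off. The chemokine receptor genes Cxcr2 and Cxcr4, which can also bind MIF, were on in none, with highest signals of 1182 and 442.

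Promoter windows of 300 bases from the RefSeq table (GRCm38.p6) were used for 7 of the 10 genes, not for Cxcl16, Ccl2 and Ik. The windows of Mif, on in most cells, and Cxcl10, on in none, are printed here 5′ to 3′ on the gene's strand to set a widely detected and an undetected member side by side. Mif is chr10:75860228-75860527 and Cxcl10 is chr5:92348840-92349139, both on the minus strand, and capitals mark the motifs searched on both strands. In Mif they are GC boxes (GGGCGG or its complement), in Cxcl10 the core of the interferon-stimulated response element (ISRE, GAAA and GAAA with any 2 bases between) and the κB consensus bound by NF-κB.
Mif: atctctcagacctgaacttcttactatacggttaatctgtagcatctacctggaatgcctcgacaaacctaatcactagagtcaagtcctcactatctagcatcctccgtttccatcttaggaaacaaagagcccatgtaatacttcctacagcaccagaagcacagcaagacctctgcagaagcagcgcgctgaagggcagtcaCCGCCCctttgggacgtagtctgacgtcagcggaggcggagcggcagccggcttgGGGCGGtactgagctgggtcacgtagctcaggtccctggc
Cxcl10: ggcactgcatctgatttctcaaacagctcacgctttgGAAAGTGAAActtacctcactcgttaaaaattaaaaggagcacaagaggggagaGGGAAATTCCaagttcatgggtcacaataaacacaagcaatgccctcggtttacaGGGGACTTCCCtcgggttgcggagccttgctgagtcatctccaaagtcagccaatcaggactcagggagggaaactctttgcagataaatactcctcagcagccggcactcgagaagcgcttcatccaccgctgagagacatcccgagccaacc
The Mif window holds 2 GC boxes, no TATAAA and 14 CpG at 54.0% GC. The Cxcl10 window holds 1 ISRE core and 3 κB matches that fall in 2 stretches, with 10 CpG at 50.3% GC. Of 32851 windows of the same length, 35.7% held a GC box, 3.44% the ISRE core, 8.46% the κB consensus and 13.6% TATAAA. The windows of Il33, Xcr1 and Ackr4 each hold a TATAAA and no GC box, and those of Cxcl12 and Tnfaip1 hold 5 and 2 GC boxes. A match is a stretch of letters, and binding was not measured here.

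Il33 followed the same cells as Mif in adult WT and differed from it at P13. IL-33 is a nuclear cytokine of the IL-1 family that is released when cells are damaged, and its gene lies at chr19:29925113-29960718. Its signals were 97.2, 54.7, 43.0, 16231 and 34774 in adult WT, with MG3 the highest of all 27 cells. Rhod-ko cells had 12051, 8653, 15538, 10682 and 1509 at 8 weeks and 20637, 8451, 14000.0, 12998 and 25266 at 25 weeks, and rd1 cells had 10762, 25493, 11157 and 14234 at 5 weeks. Among these mutant cells Rhod-ko 8 weeks cell 8 alone was off. At P13 the congenic cells had 55.0, 20.2 and 38.4 and the rd1 cells 8803, 57.9, 2.9, 16303 and 34.9, so that B4 and B3 were on, at levels of the older cells, and the others were at the bottom of the scale. Il33 was on in 0 of 3 congenic cells, which allows a share of up to 70.8%, and in 2 of 5 rd1 cells at P13 (5.27% to 85.3%). The 5 cells with 8 or 9 vascular markers on had it at 55.0 or less, and rd1 A4, with 3 such markers on, had 57.9.

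The median of Il33 was at least 10.7-fold above adult WT in Rhod-ko at 8 weeks, at least 14.0-fold at 25 weeks and at least 12.6-fold in rd1 at 5 weeks, with overlap in each because of MG15 and MG3. Without MG1, MG16 or MG22 alone the log2 differences were 1.41, 1.80 and 1.65. Without MG1, MG16 and MG22 the differences were -1.15, -0.76 and -0.91 (log2). At P13 both medians lay under the floor. Leaving out A4, A1 or B1 of rd1 made that difference 1.57, and means of log2 signal made it 1.43. Every cell with Il33 on also had Mif on, 17 of 17, and 5 cells had Mif on without Il33. The pattern of Il33 over the 27 cells was most like those of Trim2 (Pearson r of log2 signals floored at 1,000 of 0.89), the retinaldehyde-binding protein gene Rlbp1 (0.82) and the ornithine aminotransferase gene Oat (0.80). All cells share array type and amplification, and r is a description over cells of 6 conditions. The co-receptor gene Il1rap was on in 3 cells, adult WT MG16 and MG3 and rd1 5 weeks A5/A6. Il1rl1, the gene of the IL-33 receptor ST2, was not analysed here.

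**Figure D2:**
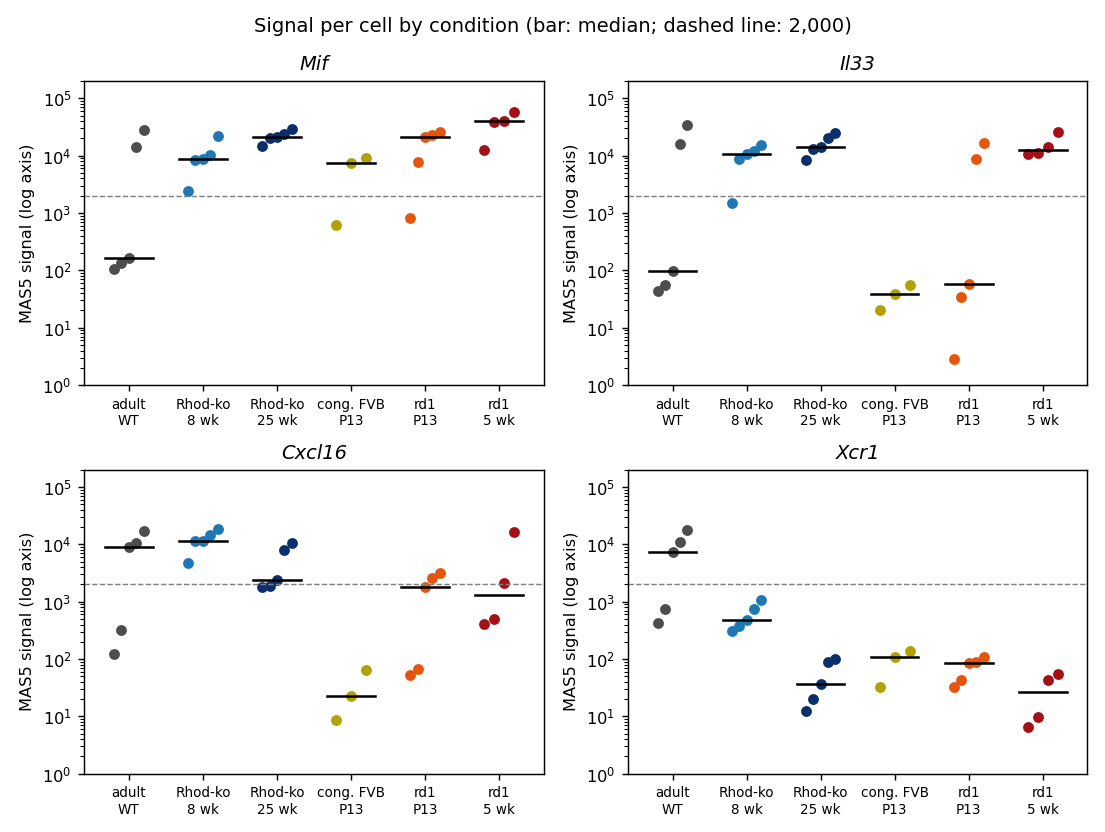
MAS5 signal (log axis) of Mif, Il33, Cxcl16 and Xcr1 in each cell by condition; each point is 1 cell, the bar is the median and the dashed line marks 2,000. Adult WT cells split into high and low for all 4 genes, and only 3 of them lie above the line for Xcr1.

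Cxcl16 was on in every Rhod-ko cell at 8 weeks, in some cells of adult WT, Rhod-ko at 25 weeks and both rd1 ages, and in no congenic cell. CXCL16 is a chemokine on a membrane stalk that also takes up oxidised lipoprotein as a scavenger receptor, and the sheddase ADAM10 releases it as a ligand of CXCR6. The gene lies at chr11:70454389-70459984. Adult WT cells had 10506, 325, 9067, 124 and 16919.8, so MG1, MG22 and MG3 were on. Rhod-ko cells had 18176, 11422, 14645, 4801 and 11484 at 8 weeks, all on, and 7944, 1852, 2372, 1833 and 10658 at 25 weeks, where A1 and A5 stood above the other 3 cells near 2,000. The rd1 cells had 415, 16597, 509 and 2111 at 5 weeks, where B1 stood far above the others. At P13 the signals were 22.9, 8.6 and 65.1 in congenic cells and 2625, 3164, 52.2, 1771 and 67.3 in rd1, with B4, A4 and B3 far above the cells with vascular markers. Its 2 probe sets were each on in 14 cells.

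Against adult WT the median of Cxcl16 differed by 0.34 (log2) in Rhod-ko at 8 weeks, which is within 2-fold, and was 3.82-fold lower in Rhod-ko at 25 weeks and 6.24-fold lower in rd1 at 5 weeks. Groups overlapped in each comparison. The adult WT median decides these values. Without MG1, MG22 or MG3 the 8 weeks difference became 1.93, 1.83 or 1.93, at least 2-fold higher, and that at 25 weeks became -0.34, -0.45 or -0.34, within 2-fold. Without all of MG1, MG16 and MG22 the 3 differences were 1.48, -0.79 and -1.50. Comparing means of log2 signal made them 1.34, -0.25 and -0.85. Quantile normalization put the first at 1.09. With the 90th percentile of all arrays made equal they were -0.44, -3.74 and -3.79. The rd1 5 weeks difference was -1.05 without MG1 or MG3 and -1.16 without MG22, and that at 25 weeks was -1.06 without A2 or A4. With congenic FVB as the control the rd1 5 weeks difference was 0.54, so its direction changed. At P13 the rd1 median of 1771 was at least 1.77-fold above a congenic median under the floor, and at least 2-fold without rd1 A1 or B1 (1.11, log2) or with a floor of 500 (1.82).

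Cxcr6, the receptor gene of CXCL16, was on in adult WT MG22 alone, at 6973. Adam10 was on in 19 cells, with all 12 FVB cells among them, at 21424, 15299 and 17278 in congenic FVB, and Adam17 was on in 4. The genes most like Cxcl16 over the 27 cells were the ribosomal protein genes Rpl7 and Rpl4 (r of 0.75 and 0.72) and Ldhb, a lactate dehydrogenase subunit (0.68), all of which were on in 23 to 27 cells. Beside the gliosis marker Gfap, which encodes the glial filament protein, Cxcl16 was on in 8 of 11 cells with the Gfap probe set of the study on and in 7 of 16 without. Among the 19 mutant cells the counts were 8 of 11 and 4 of 8. With the highest Gfap probe set they were 9 of 14 and 6 of 13 over all cells. Cells are not independent replicates, so no test of these counts was run.

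Cxcl12 was on in few cells, most of them at P13. CXCL12 holds and guides cells that carry CXCR4, and endothelial and stromal cells are known sources. The gene lies at chr6:117168535-117181368. It was on in 2 of 3 congenic cells (23.0, 3943 and 20094), in 2 of 5 rd1 cells at P13 (2065, 22.1, 13427, 144 and 1682) and in Rhod-ko 25 weeks A2 (3568). The highest signals, 20094 in congenic A5 and 13427 in rd1 A1, and 3 of the 5 cells on belonged to the cells with 8 or 9 vascular markers on. Without those cells Cxcl12 was on in mutant cells only, rd1 P13 B4 and Rhod-ko 25 weeks A2. Adult WT cells had 410 at most, Rhod-ko cells at 8 weeks 408 to 1540 and rd1 cells at 5 weeks 39.5 to 1269. At P13 the rd1 median was 2.34-fold lower than the congenic median (-1.23, log2), with overlap, and was within 2-fold without congenic A5 (-0.24), with a floor of 2,000 (-0.98) or with means of log2 signal (-0.99). Against adult WT both medians lay under the floor in all 3 comparisons, and against congenic FVB rd1 at 5 weeks was lower (-1.98). The receptor genes Cxcr4 and Ackr3 were on in no cell, with highest signals of 442 and 567.

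**Figure D3:**
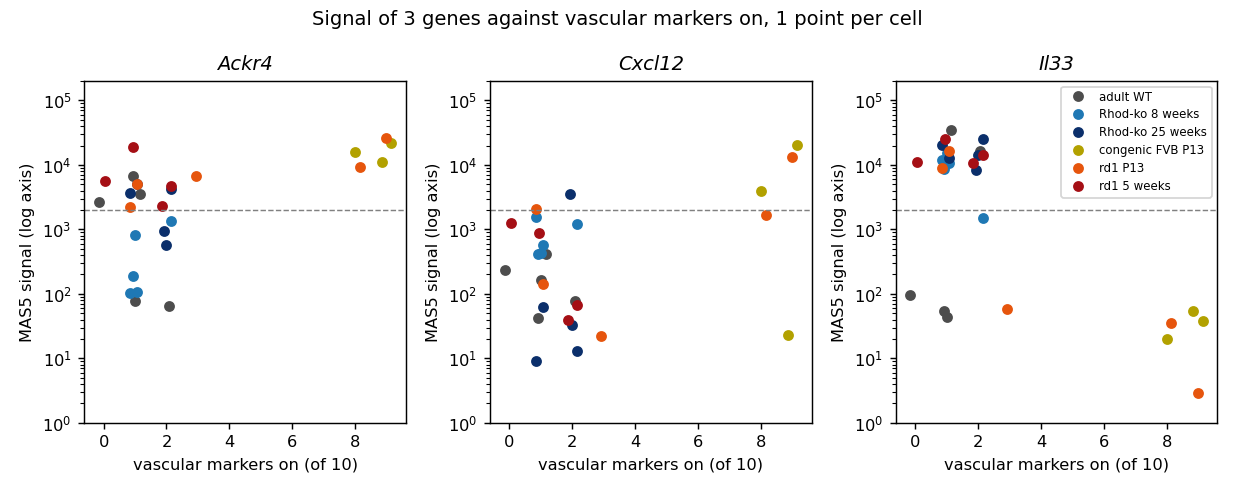
MAS5 signal (log axis) of Ackr4, Cxcl12 and Il33 against the number of vascular markers on (of 10, shifted slightly sideways so that points do not cover each other), 1 point per cell, coloured by condition; the dashed line marks 2,000. The 5 cells with 8 or 9 markers on have Ackr4 at 9403 or more and Il33 at 55.0 or less, and Cxcl12 from 23.0 to 20094.

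Ccl2 and Cxcl10, the classical inducible chemokines of the list, did not reach 2,000 in any of the 27 cells, which allows a share of cells on of up to 12.8% for each. CCL2 draws monocytes through CCR2, and CXCL10 is induced by interferon and draws T cells through CXCR3. Ccl2 lies at chr11:82035577-82037452 and Cxcl10 at chr5:92346638-92348889. Signals of Ccl2 were 70.7, 158, 97.7, 445 and 999 in adult WT and 677, 68.8, 569.8, 1116 and 571 in Rhod-ko at 8 weeks, where cell 7, the cell with 6 microglia markers on, was the highest of all 27. They lay between 22.7 and 460 in the other 4 groups. Signals of Cxcl10 were 30.6, 100.1, 4.8, 35.2 and 81.7 in adult WT and 170.0, 457, 263, 106 and 442 in Rhod-ko at 8 weeks, so that these groups did not overlap, while both medians lay far under the floor of 1,000. No overlap was seen for 3.47% of all genes in that comparison, and the arrays of Rhod-ko at 8 weeks had higher median signals over all probe sets. The other 4 groups had 2.1 to 88.2. A limit of 1,000 put Ccl2 on in Rhod-ko cell 7 alone, and a limit of 500 put it on in 5 cells. Cxcl10 stayed below 500 everywhere. Each is measured by 1 probe set, and Ccr2 and Cxcr3 were on in no cell, with highest signals of 751 and 1340.

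Xcr1 was on in 3 adult WT cells and in no other cell. XCR1 is the receptor of the lymphotactin XCL1 and is best known from cross-presenting dendritic cells. The gene lies at chr9:123852315-123862029. Adult WT signals were 17544, 7297, 10926, 421 and 731, so that MG1, MG16 and MG22 lay at 7297 or more and MG15 and MG3 at 731 or less. Rhod-ko cells had 478, 371, 307, 751 and 1052 at 8 weeks and 12.3, 87.7, 101, 37.2 and 20.5 at 25 weeks, and the 12 FVB cells had 6.5 to 139. Xcr1 was on in 3 of 5 adult WT cells (14.7% to 94.7%) and in 0 of 19 mutant cells, which allows up to 17.6%. The adult WT median was at least 7.3-fold above each of the 3 older mutant groups (a log2 difference of -2.87, and -1.43 without MG1 or MG22). There was no overlap with Rhod-ko at 25 weeks (5.66% of genes) or rd1 at 5 weeks (3.28%), while 3 Rhod-ko cells at 8 weeks lay above MG15. Limits of 500 and 1,000 counted 2 and 1 mutant cells as on.

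Mif, Il33 and Rlbp1 were off in the 3 cells with Xcr1 on, and also in congenic A5 and rd1 P13 B1, where Xcr1 was off. Of all genes, 55 (0.302%) were on in these 3 cells and in no other, and 219 (1.2%) were off in them and on in both MG15 and MG3. Ccl3, the gene of a chemokine that binds other receptors, was also on in these cells alone, at 8462, 15945 and 6060.0. The Xcr1 ligand gene Xcl1 was on in no cell, with a highest signal of 534. Leaving out the 3 cells leaves 24 cells in which Xcr1 was nowhere on, and all 3 differences were then 0.00 with both medians under the floor.

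Ackr4 was on in all 12 FVB cells, a trait of 1.27% of genes, in 6 of 15 C57/BL6 cells and in 0 of 5 Rhod-ko cells at 8 weeks, as 73.7% of genes were. ACKR4, formerly CCRL1, is an atypical receptor that takes up CCL19, CCL21 and CCL25 without G protein signalling. The gene lies at chr9:104097682-104126643. Congenic FVB cells had 11170.4, 16037 and 22245 and rd1 cells 2255, 6726, 26268, 5097 and 9403 at P13 and 2292, 19103, 5646 and 4668 at 5 weeks. C57/BL6 cells had 2636, 6836, 77.6, 65.3 and 3566 in adult WT, 102, 189, 829.7, 109 and 1329 in Rhod-ko at 8 weeks and 3681, 959, 563, 4996 and 4291 in Rhod-ko at 25 weeks. The lowest FVB cell (2255) lay above 9 of the 15 C57/BL6 cells, and the 2 strains overlapped in the others. As shares, 100% of FVB cells (73.5% to 100%) and 40.0% of C57/BL6 cells (16.3% to 67.7%) were on. Strain cannot be told apart here from age and genotype, nor, for the height of the signal, from vascular markers. The 5 cells with those markers, all FVB, held 5 of the 6 highest signals, rd1 5 weeks B1 (19103) being the other. The remaining FVB cells, all rd1 and with 0 to 3 vascular markers on, had Ackr4 on at 2255 to 19103.

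The Ackr4 median was at least 2.64-fold lower in Rhod-ko at 8 weeks than in adult WT, and was 0.48 higher (log2) in Rhod-ko at 25 weeks and 0.96 higher in rd1 at 5 weeks, both within 2-fold. The 8 weeks difference was -0.92 without MG1, -0.70 without MG16 or MG3 and -0.40 with a floor of 2,000, all within 2-fold. That at 25 weeks passed 2-fold without MG16 or MG3 (1.18 each), and it turned to -0.90 with equal 90th percentiles, to -0.27 with quantile normalization and to -0.46 without A4 or A5. That of rd1 at 5 weeks passed 2-fold without MG1, MG16 or MG3 (1.44, 1.66 and 1.66) or without A1 or A5/A6 (1.10 each), and was -1.64 against congenic FVB. At P13 the rd1 median was 2.38-fold below the congenic median, with overlap, and -0.99 without congenic A5. Of its 3 probe sets, 1 stayed at or below 122 in every cell while the others reached 26268 and 19223. Taking a single probe set for each gene put the 3 differences from adult WT at -0.85, 1.03 and 1.51. The genes most like Ackr4 over the 27 cells were Slc6a6, the taurine transporter (r of 0.82), the transcription factor gene Klf6 (0.74) and Slco1c1, a thyroid hormone transporter of the blood-brain barrier (0.72). Of the ligand genes, Ccl25 was on in Rhod-ko 25 weeks A1 alone, at 2101, and Ccl19 and Ccl21a were not analysed here.

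**Figure D4:**
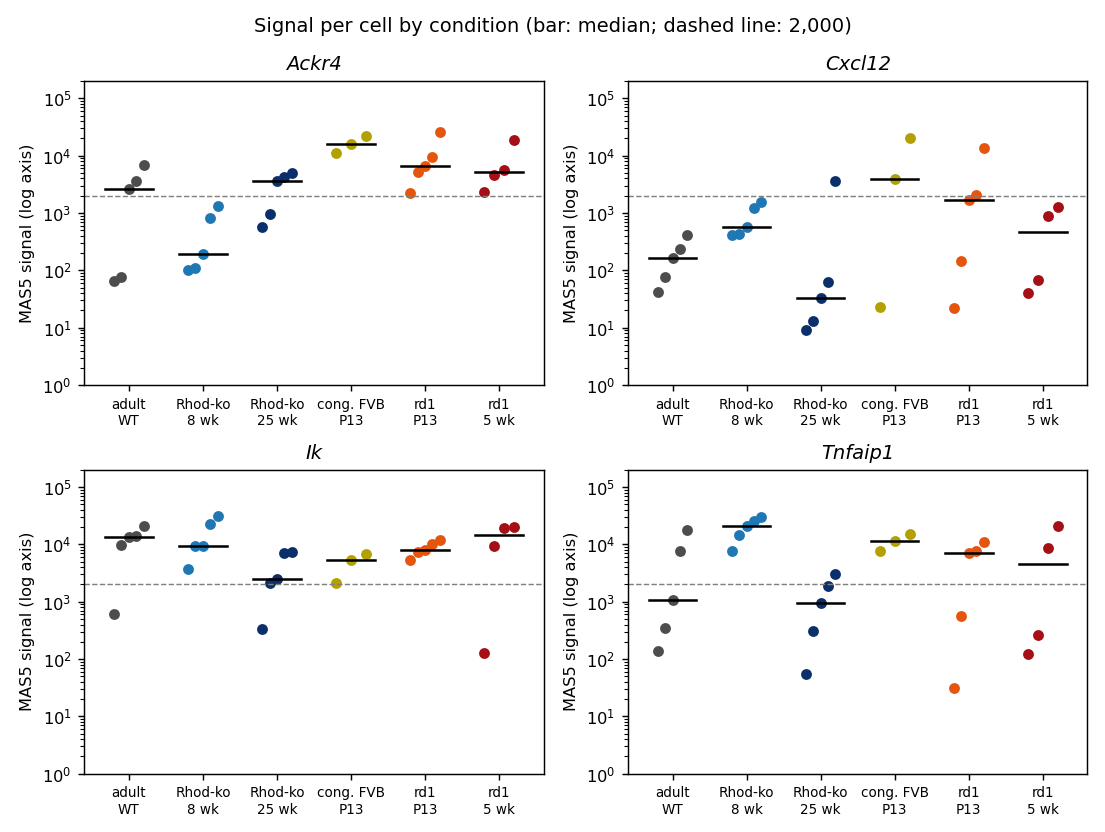
MAS5 signal (log axis) of Ackr4, Cxcl12, Ik and Tnfaip1 in each cell by condition; each point is 1 cell, the bar is the median and the dashed line marks 2,000. Ackr4 lies above the line in all FVB cells and below it in all Rhod-ko cells at 8 weeks, and Ik lies above it in all but 3 cells.

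Ik was the most widely detected gene of the list, on in 24 of 27 cells. The gene, on chromosome 18, is named for an early report of a cytokine, and it encodes RED, a nuclear protein of the spliceosome that works with SMU1. Being on in at least 24 cells was seen for 1.32% of all genes. Signals were 13646, 14085, 21099, 9731 and 599 in adult WT, 9229.8, 30812, 22423, 9472 and 3780.0 in Rhod-ko at 8 weeks and 2496, 7125, 2134, 330.0 and 7372 at 25 weeks. They were 2079, 6752 and 5332 in congenic FVB, 5349, 11974, 9968, 7416 and 7818 in rd1 at P13 and 9388, 127, 20392 and 19600.2 in rd1 at 5 weeks. Cells MG3, Rhod-ko 25 weeks A4 and rd1 5 weeks B1 were the ones below 2,000. The median was 5.47-fold lower in Rhod-ko at 25 weeks than in adult WT, with overlap through MG3, and within 2-fold in the other 3 comparisons. That at 8 weeks (-0.53) turned to 0.38 with quantile normalization and to 0.08 without cell 7, and rd1 at 5 weeks was higher against congenic FVB (1.35). Without MG1, MG16 and MG22 the 25 weeks difference was -0.32, that of Rhod-ko at 8 weeks 1.60 and that of rd1 at 5 weeks 2.12. At P13 the difference of 0.55 passed 2-fold with 1 probe set per gene (2.10) and without congenic A4 or A5 (1.23 and 1.06). Smu1 was on in 6 cells.

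Tnfaip1 was on in all 5 Rhod-ko cells at 8 weeks and all 3 congenic cells, and in part of the cells elsewhere. Tnfaip1 is named for its induction by tumour necrosis factor (TNF) in endothelial cells, and its protein is an adaptor of the CUL3 ubiquitin ligase that targets the small GTPase RhoB. The gene lies at chr11:78522850-78536270. Adult WT cells had 349, 17835, 136, 7618 and 1076, and Rhod-ko cells had 14284, 21162, 7553, 29757 and 25420.0 at 8 weeks and 1898, 2993, 308, 54.7 and 939.7 at 25 weeks. FVB cells had 11465, 7624 and 14992 in congenic FVB, 7737, 31.3, 7061, 567 and 10778 in rd1 at P13 and 120.4, 20970.2, 259 and 8798 in rd1 at 5 weeks. At P13 the 5 cells with vascular markers were all on and of the other rd1 cells only B4 was.

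The Tnfaip1 median was 19.7-fold higher in Rhod-ko at 8 weeks than in adult WT (4.30, log2), with overlap through MG16 and MG15, and stayed at least 2-fold higher under every alternative tried, the lowest being 2.71 with means of log2 signal. In Rhod-ko at 25 weeks it was within 2-fold (-0.11), but lower by at least 2-fold without MG1, MG22 or MG3. In rd1 at 5 weeks it was 2.76-fold higher, a value that 2 cells carried, and 3.03 (log2) without A1 or A8. Without B1 or without A5/A6 the difference was -0.11, and against congenic FVB it was -1.95. It was also within 2-fold without MG1, MG22 or MG3 (0.05, 0.05 and 0.10), with quantile normalization (0.87), with a floor of 500 (0.96) and with means of log2 signal (0.44). At P13 it was within 2-fold (-0.70), and -2.11, -2.04 and -2.11 without rd1 B4, A1 or B1, -1.02 with quantile normalization and -1.61 with means of log2 signal. Its 3 probe sets disagreed, on in 9, 8 and 15 cells. Tnf itself was on in no cell, with a highest signal of 536, and its receptor gene Tnfrsf1a was on in 7. Of the ligase partners, Cul3 was on in 8 cells, Kctd10 in 9, Kctd13 in 1 and the target Rhob in 7. The genes most like Tnfaip1 were Fau and Rps20, of ribosomal proteins (r of 0.66 and 0.64), and Dnajc17 (0.63). Beside Gfap it was on in 7 of 11 cells with the Gfap probe set of the study on and in 9 of 16 without.

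Set side by side, the 10 genes gave 3 medians at least 2-fold higher and 2 lower in Rhod-ko at 8 weeks than in adult WT, where 6.17% and 5.12% of all genes were higher and lower. In Rhod-ko at 25 weeks they gave 2 higher and 3 lower (7.9% and 3.7% of all genes), and in rd1 at 5 weeks 3 higher and 2 lower (6.35% and 4.25%). At P13 rd1 gave 1 higher and 2 lower than congenic FVB (4.79% and 6.41%), and the groups overlapped for all 10 members, whereas 5.07% of all genes had no overlap. Of the 10, 3 or 4 had both medians under the floor in each comparison, as 13206 to 14632 of the 18194 genes had. Among members with a median above the floor, the median difference was 0.34, -0.11, 0.96 and -0.07 in these 4 comparisons, and for all such genes it was 0.26, 0.58, 0.56 and -0.13. With MG1, MG16 and MG22 left out, 5, 1 and 3 members were at least 2-fold apart in the 3 comparisons with adult WT, against 5 in each with all cells, and they were in part other members. In Rhod-ko at 8 weeks Mif and Il33 were then lower and Cxcl16 and Ik were added, at 25 weeks the member was Tnfaip1, and in rd1 at 5 weeks they were Cxcl16, Ackr4 and Ik. Leaving out rd1 A1 or B1 made 6 members apart at P13. Because the list was chosen with earlier results of these data known, its counts beside the shares of all genes are descriptive only.

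**Figure D5:**
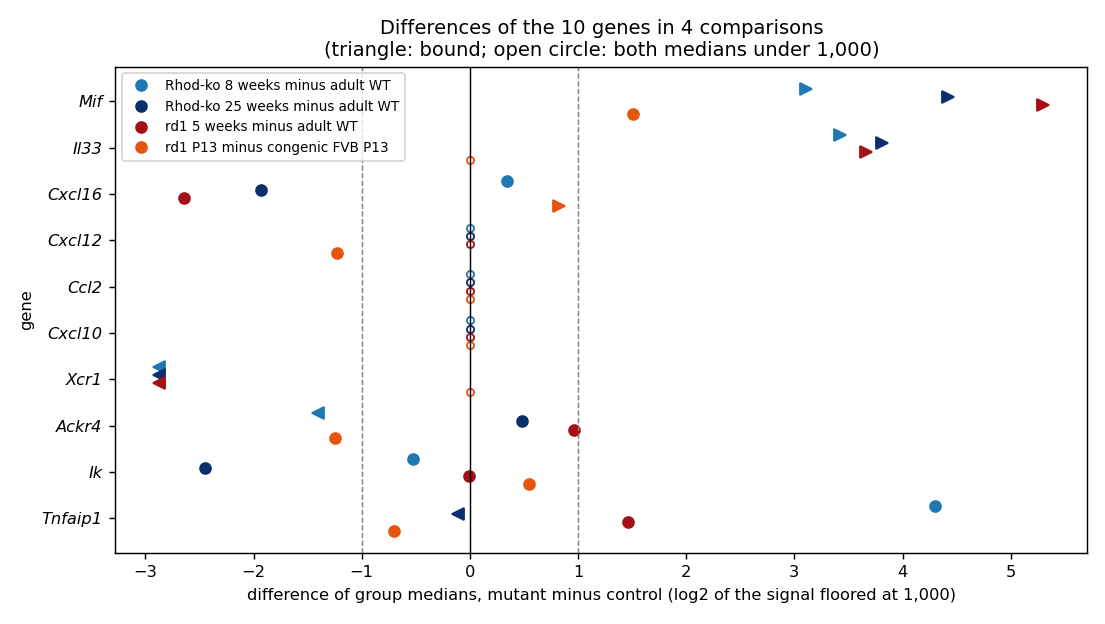
Difference of group medians (log2 of the signal floored at 1,000, mutant minus control) for the 10 genes in 4 comparisons; triangles are bounds, open circles have both medians under 1,000 and dashed lines mark 2-fold. Mif and Il33 lie right of the line and Xcr1 left of it in all 3 comparisons with adult WT, which share their control cells and, for these genes, rest on MG1, MG16 and MG22.

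Of all genes, 57.8% were on in at least 1 cell and 39.2% in at least 3. Of 35 chemokine ligand genes measured, 9 were on in at least 1 cell and 5 in at least 3: Cxcl16, Ccl27a (7 cells), Cxcl12, Ccl3 and Cxcl14 (3). No ligand median was at least 2-fold higher in any of the 4 comparisons, and 1 or 2 were lower in each (Ccl3, Cxcl16 or Cxcl12). Of all genes, 4.79% to 7.9% were higher and 3.7% to 6.41% lower. In each comparison 31 to 33 of the 35 ligand genes had both medians under the floor and could not be called. Ccl3 was on in MG1, MG16 and MG22 alone. Cxcl16 in Rhod-ko at 25 weeks was within 2-fold without MG1, MG22 or MG3. Of 23 chemokine receptor genes, Ackr4 and Xcr1 were the only ones on in 3 cells or more, and 16 were on in none. Of 40 cytokine genes, 10 were on in at least 1 cell, led by Mif, Il33, Ddt (15), Il18 (6) and Il15 (5). Mif, Il33 and Ddt were at least 2-fold higher and Il18 lower in each comparison with adult WT. Mif and Il33 were in none of them at least 2-fold higher without MG1, MG16 and MG22. Ddt was at 20.4, 80.7 and 13.9 in those cells, against 1383 and 2536 in MG15 and MG3. List genes outside the 10 were not compared without those cells.

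Of 40 cytokine receptor genes, 19 were on in at least 1 cell and 11 in at least 3. Osmr, the oncostatin M receptor gene, was on in 20 cells and Il6st, which encodes the gp130 subunit, in 19, while Lifr, of the same receptor family, was on in 3. Osmr was at least 2-fold higher in all 3 comparisons with adult WT, where its signals were 14.5, 50.8, 45.4, 10283 and 324, against 4257, 2773, 7670.5, 5877 and 20348 in Rhod-ko at 25 weeks. The interferon receptor genes Ifnar2 and Ifngr1 were each on in 9 cells. Of the 40 genes, 5, 1 and 3 were at least 2-fold higher in Rhod-ko at 8 and 25 weeks and in rd1 at 5 weeks. Tnfrsf21 alone was at least 2-fold lower in each of these comparisons. At P13 none was higher and 4 were lower (Ifnar2, Il10rb, Ltbr and Tnfrsf19). Of all genes, 4.79% to 7.9% were higher and 3.7% to 6.41% lower. Of 21 scavenger receptor genes, 14 were on in at least 1 cell. Scara3 and Scarb1 were on in 19 cells each, Megf10 and Scarb2 in 16, and Cxcl16 and Lrp1 in 15. Lrp1, a large endocytic receptor, was on in 15 of 19 mutant cells and in none of 8 WT cells (at most 395). Of all genes, 15.0% were on in mutant cells only. Lrp1 and Scara3 were at least 2-fold higher in all 4 comparisons, and Megf10 was lower in each with adult WT. In Rhod-ko at 8 and 25 weeks, rd1 at 5 weeks and P13, 3, 3, 4 and 2 scavenger receptor genes were higher. In the same order 1, 2, 2 and 0 were lower, beside the shares of all genes just given. At P13 Lrp1 was on in 3 rd1 cells and off in the 5 cells with 8 or 9 vascular markers on. Those 5 include all congenic cells. Of 21 TNF-induced and NF-κB genes, 18 were on in at least 1 cell, led by Tnfaip1, the adhesion gene Vcam1 (13), Rela (11), Nfkbia (10) and Nfkbib (7). In each comparison 2 or 3 of the 21 were at least 2-fold higher, beside 4.79% to 7.9% of all genes. They were in part other genes each time, and no gene was higher in all 4 comparisons. None was at least 2-fold lower against adult WT, and at P13 2 were (Nfkbia and Nfkbib), beside 6.41% of all genes. All congenic control cells had 8 or 9 vascular markers on and 3 rd1 cells did not, and the part of this in the P13 calls was not tested. The comparisons with adult WT share its cells, of which MG15 alone had Osmr on.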

How the data were processed

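The authors picked single cells, reverse transcribed their RNA from an oligo dT primer, tailed the cDNA and amplified it by 35 cycles of PCR before hybridization to Affymetrix mouse expression arrays. The deposited values are signal intensities on a linear scale from MAS5, named in the submitters' processing notes (version: not given in the sources used here), scaled by the authors to a trimmed mean of 500 per array. A cell with 1 array has no estimate of its measurement error, and the number of arrays limits the precision. Of 45101 probe sets, 34958 carry 1 gene symbol in the array annotation, 932 several and 9211 none. Those with 1 symbol cover 18194 genes, and other genes were not analysed here. Following the study's methods, the highest of a gene's probe sets in a cell stood for that gene.

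The 10 genes, the wider gene lists and the marker lists were chosen with earlier results of these data known. On calls used a signal of 2,000. Group medians were compared after a floor of 1,000 and log2, and 2-fold served as a size limit with no test behind it. No overlap means that every cell of 1 group lay above every cell of the other, and shares of all genes meeting each rule stand beside the counts. Named are the 10 genes, list genes on in at least 3 cells or the 5 on in most cells of a list, direct partners and the 3 genes most like a member on in 6 to 21 cells by Pearson r. Alternatives were 1 probe set per gene, 2 other normalizations, other limits and floors, group means, another control for rd1 at 5 weeks, A5 and A6 as separate cells, and leaving out each cell, the P13 cells with most vascular markers or Rhod-ko cell 7. Leaving out the adult WT cells with Rlbp1 off was added after the data were seen. The steps were tested on simulated data. Promoter windows and positions come from RefSeq tables (GRCm38.p6). Tables were handled with pandas 2.3.3 and NumPy 2.4.6, intervals came from SciPy 1.17.1 and plots from matplotlib 3.10.9, all under Python 3.11.15.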

Additional observations from a re-analysis of the deposited data

Results flagged for a closer look

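In 4 of 50 sets of 4 or 5 cells (10 genes in 5 conditions), 1 cell lay far below the others of its condition on the log2 scale by Dixon's ratio of gap to range at the 95% level, and chance alone gives about 1 in 20 sets. Il33 was 1509 in Rhod-ko 8 weeks cell 8, against 8653 in the next lowest cell. Ik was 599 in adult WT MG3, against 9731 in the next lowest, and 127 in rd1 5 weeks B1, against 9388. Ccl2 was 68.8 in Rhod-ko 8 weeks cell 1, against 569.8 in the next lowest, and all 5 of these Ccl2 signals lay below the limit of 2,000.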

How the results depend on the processing

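The counts of members on in both kinds of cell kept to 7 with each single cell left out, and those on in mutant cells only, in WT cells only and in no cell kept to 0, 1 and 2. These counts could not change, since no member rested on a single cell of either kind. Without the 5 P13 cells with most vascular markers 1 member, Cxcl12, was on in mutant cells only. With on set at 500 or 1000, 0 members were on in WT cells only and 1 in no cell, and at 1000, 1 member (Ccl2) was on in mutant cells only. Without the adult WT cells with Rlbp1 off, an alternative chosen after the data were seen, 0 members were on in WT cells only, and 1 and 3 members instead of 5, in part other members, were at least 2-fold apart from adult WT in Rhod-ko of 25 weeks and in rd1 of 5 weeks. Under it Mif turned to -1.22 (log2) and Il33 to -1.15 in Rhod-ko at 8 weeks, and Il33 to -0.76 in Rhod-ko at 25 weeks and -0.91 in rd1 at 5 weeks. Leaving out each cell gave 4 to 6 members apart in Rhod-ko at 8 weeks, 5 to 6 at 25 weeks, 4 to 6 in rd1 at 5 weeks and 2 to 6 at P13, with 6 without rd1 P13 A1 or B1. Against congenic FVB the rd1 5 weeks differences of Cxcl16 and Tnfaip1 turned to 0.54 and -1.95, and that of Tnfaip1 ran from -0.11 (without B1 or A5/A6) to 3.03 (without A1) with each cell left out. The cause was not tested. In all, 8 values of single members reversed, 73 moved and 1769 did neither. A difference moved if it changed by more than the spread between cells, and a count of cells on if it changed beyond a set ratio. Many of the 1769 could not change, since the cell left out was in neither group compared, so their number does not measure stability. The P13 comparison without the cells with vascular markers has no control cells and gives no value.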

Other observations

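Several chemokine and cytokine genes outside the list were high in single cells. They were picked after their values were seen and have no replicate. Cxcl13, a chemokine of B cells, was on in Rhod-ko 8 weeks cells 7 and 8 alone, at 16611 and 5478, and at 1336 or less in every other cell. Cell 7 also held the highest signals of the macrophage receptor gene Csf1r (118151) and of the NF-κB subunit gene Nfkb2 (56653). Kitl, the gene of the KIT ligand, was on in 4 cells, all of them among the P13 cells with 8 or 9 vascular markers on, with a highest signal of 22290 in congenic A5. Tnfrsf19 was on in 4 cells, also all from that set, with a highest signal of 7954 in congenic A3.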
